A study of Mus musculus with 4 samples.

Results

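Lrg1 and 9 genes of the transforming growth factor beta (TGF-beta) system were read together in mouse testis. The set holds 3 leucine-rich secreted proteins that act on TGF-beta signalling (Lrg1, Dcn and Bgn), the ligands Tgfb1, Tgfb2 and Tgfb3, the receptors Tgfbr1, Tgfbr2 and Acvrl1, and the co-receptor Tgfbr3. Members were found by gene symbol, and all 10 were present among the 25265 genes of the deposited count table. The set was proposed around Lrg1, which was chosen by its difference between the genotypes in these same libraries. The difference between genotypes is therefore given for every member as a description, with no test, and nothing is read from how many members differ.

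Whole testes of C57BL/6 males at postnatal day 56 gave total RNA that was depleted of ribosomal RNA and sequenced in 4 libraries. Of these, 2 are labelled control and 2 are labelled Ythdf2-vKO, described in the series title as a germ cell-specific mutant of Ythdf2, whose protein binds methylated adenosine in RNA. The labels give no driver of the deletion, no further genotype of the controls and no link from library to animal, so n = 2 counts libraries and a spread between them may be technical. Library totals ran from 24862518 to 29561182 counts.

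The targeted gene itself was not lower in the libraries that carry its name. Ythdf2 had 52.3 ± 1.74 counts per 1000000 (CPM, SD, n = 2) in the controls against 66.6 ± 0.502 CPM (n = 2) in those labelled Ythdf2-vKO, a log2 fold change of 0.35 (SE 0.13, edgeR adjusted p 0.238). With the GC offset and block of replicate number together, edgeR called it higher (0.40, adjusted p 0.0232). That fit called 828 genes in all, against 83 with genotype alone, and no label ties the replicate numbers to a shared animal or batch. A count summed along a gene cannot tell a transcript that lacks an exon, and the deleted segment is not stated in the labels, so every direction here follows the labels.

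TGF-beta ligands are secreted in a latent form and must be freed before they bind. A freed ligand brings together the type II receptor Tgfbr2 and a type I receptor, usually Tgfbr1 or, in endothelial cells, Acvrl1, and the type I receptor then phosphorylates SMAD proteins that move to the nucleus. Leucine-rich alpha-2-glycoprotein, the product of Lrg1, is a secreted protein known to promote vessel growth by directing endothelial TGF-beta signalling towards Acvrl1 with the accessory receptor endoglin. Decorin and biglycan, the products of Dcn and Bgn, are small leucine-rich proteoglycans of the extracellular matrix that can bind TGF-beta. In the testis, TGF-beta signalling is known to take part in the exchange between germ cells and the somatic cells around them.

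Upstream sequence is shown for Lrg1 and Tgfb1, the 2 members whose genotype groups lay farthest apart relative to their spread. The sequences are from RefSeq (GRCm38.p6), which held upstream windows for 6 of the 10 members. Capitals mark GGGCGG on either strand, a motif bound by Sp1-type factors. The Lrg1 stretch is on the minus strand at chr17:56122002-56122196 and ends at the 5′ end of the GENCODE M21 gene. The Tgfb1 stretch is on the plus strand at chr7:25686752-25687001 and ends just before the start of the gene.
Lrg1: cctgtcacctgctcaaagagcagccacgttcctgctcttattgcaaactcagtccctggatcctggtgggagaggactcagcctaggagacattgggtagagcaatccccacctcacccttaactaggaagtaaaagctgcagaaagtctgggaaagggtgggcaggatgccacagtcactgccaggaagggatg
Tgfb1: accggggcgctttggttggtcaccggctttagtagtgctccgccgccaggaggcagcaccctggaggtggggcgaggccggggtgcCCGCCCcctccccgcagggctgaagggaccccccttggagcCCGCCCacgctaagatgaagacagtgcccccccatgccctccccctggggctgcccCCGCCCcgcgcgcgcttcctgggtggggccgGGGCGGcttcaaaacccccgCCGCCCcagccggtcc

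The upstream windows of these genes differ in composition. In the whole 250-base windows, GC content was 55.2% for Lrg1 and 75.2% for Tgfb1, against a median of 52.4% over all RefSeq windows of that length. GGGCGG occurred 5 times in the Tgfb1 window and 0 times in that of Lrg1, and 32.7% of the 32851 windows held it at least once. The letters TTCNNNGAA, a pattern bound by STAT factors, were in none of the 7 windows of members and in 7.02% of all windows, and CAGACA, a SMAD-binding pattern, was in 2 of the 7 and in 17.1% of all windows. TATAAA was in 1 member window, that of Tgfb2, and in 12.4% of all windows. Of the 250 bases, 167 in the Tgfb2 window lie in an exon of the antisense gene Gm29491 in GENCODE M21, and that match lies within them, while 55 in the Lrg1 window lie in the Lrg1 exon itself. All motifs were searched on both strands.

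Lrg1 (ENSMUSG00000037095) is a minus-strand gene of chromosome 17 (56119678 to 56122001, GRCm38) that no other annotated gene overlaps. It had 68 and 131 counts in the controls against 459 and 391 in those labelled Ythdf2-vKO. Scaled to CPM with edgeR's TMM factors, these were 2.91 and 4.37 CPM against 17.1 and 14.5 CPM, or 3.64 ± 1.03 against 15.8 ± 1.88 CPM (SD, n = 2 each). Both libraries labelled Ythdf2-vKO lay above both controls, and the gap between the groups was wider than the gap within either. The fitted log2 fold change was 2.11 (SE 0.22), a 4.31-fold difference, and it was the 13th largest of the 17827 genes tested with a mean of at least 1 CPM.

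The Lrg1 log2 fold change ran from 1.85 to 2.44 over the fits that left out 1 library each. It was smallest without control replicate 1 and largest without control replicate 2. The Lrg1 transcript has a GC content of 63.0%, above that of 98.8% of tested genes. Libraries differed in how expression tracked GC content. Over 17817 genes, the rank correlation (Spearman) between GC content and the departure of each library from the mean of the 4 was 0.0249 and -0.406 for the controls, against 0.258 and 0.194 for those labelled Ythdf2-vKO. With an offset for GC content the Lrg1 log2 fold change was 1.85 (SE 0.24).

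**Figure D1:**
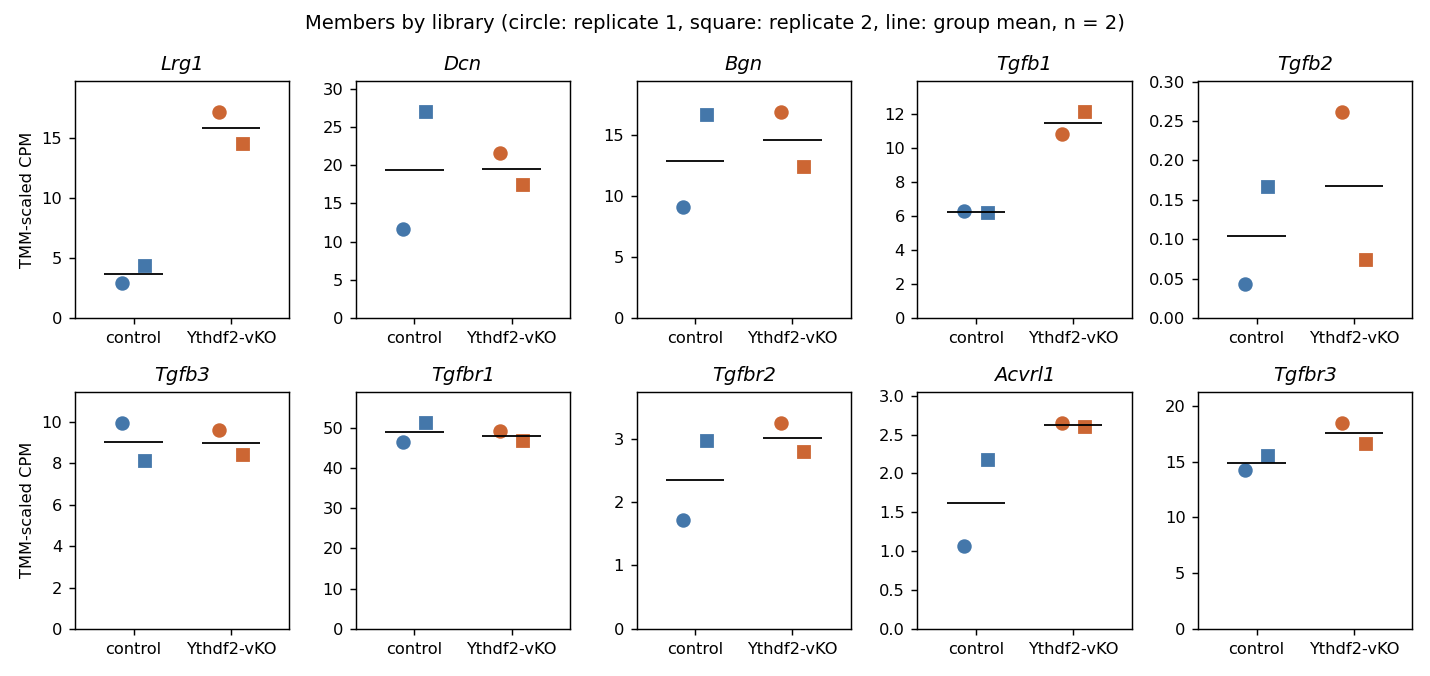
TMM-scaled CPM of each member in the 2 control libraries (blue) and the 2 libraries labelled Ythdf2-vKO (orange), with a line at each group mean and a separate axis from 0 for each gene. Lrg1 lay at 2.91 and 4.37 CPM in the controls against 17.1 and 14.5 CPM in those labelled Ythdf2-vKO, while Dcn, Bgn, Tgfb3 and Tgfbr1 overlapped between the groups.

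The other leucine-rich members did not separate the groups. Dcn (chromosome 10, 97479609 to 97518143) had 11.7 and 27.0 CPM in the controls against 21.6 and 17.4 CPM in those labelled Ythdf2-vKO, and its log2 fold change was 0.0026 (SE 0.39). Bgn (chromosome X, 73483602 to 73495933) had 9.11 and 16.6 CPM in the controls against 16.8 and 12.3 CPM in those labelled Ythdf2-vKO, with a log2 fold change of 0.17 (SE 0.27). For both proteoglycans control replicate 1 was the lowest library, and the control libraries differed by a factor of 2.30 for Dcn and 1.82 for Bgn.

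The direction for these proteoglycans turned on which library of either group was kept. Without control replicate 1 the log2 fold changes were -0.47 for Dcn and -0.19 for Bgn, and without control replicate 2 they were 0.73 and 0.68. Without replicate 1 of the libraries labelled Ythdf2-vKO they were -0.16 and -0.065, and without replicate 2 of those they were 0.15 and 0.38. The 8 fibroblast markers, which include collagen genes, summed to 30.1 CPM in control replicate 1 and to 53.9 CPM in control replicate 2, against 58.2 and 53.4 CPM in those labelled Ythdf2-vKO. Of the 8, Dpt was at 0 counts in 1 library, replicate 2 of those labelled Ythdf2-vKO. The part of such cells in the values of Dcn and Bgn was not tested, and in whole tissue fewer cells of a type and less RNA per cell cannot be told apart.

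Among the ligands, Tgfb1, the most widely expressed form, was higher in the libraries labelled Ythdf2-vKO without overlap between groups. Tgfb1 (ENSMUSG00000002603, chromosome 7, 25687002 to 25705077, plus strand) had 147 and 186 counts in the controls against 290 and 327 in the libraries labelled Ythdf2-vKO. These were 6.29 and 6.20 CPM against 10.8 and 12.1 CPM, a log2 fold change of 0.88 (SE 0.19). The groups lay well apart beside a ratio of 1.01 between the controls and of 1.12 between the other 2 libraries, and the log2 fold change ran from 0.79 to 0.96 when 1 library was left out. In the authors' deposited table the Tgfb1 log2 fold change was also 0.88 (SE 0.24).

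Tgfb3 (chromosome 12, 86056745 to 86079041), the ligand with the highest level in control testis, had 9.97 and 8.14 CPM in the controls against 9.60 and 8.41 CPM in those labelled Ythdf2-vKO. The groups overlapped fully, and the log2 fold change was -0.0043 (SE 0.19). Its sign changed with the scaling, to 0.065 with library totals alone. The genes Ttll5, Gm37804 and Gm48008 overlap Tgfb3 on the opposite strand, sharing 0, 163 and 257 exon bases with it in GENCODE M21. The library kit marks strand, but its use in counting is not given in the sources used here. Reads from the opposite strand may therefore be among the Tgfb3 counts, or reads on shared bases may be missing from them. Neither was tested.

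Tgfb2 (chromosome 1, 186622792 to 186705989) was close to the limit of detection, with 1 and 5 counts in the controls against 7 and 2 in the libraries labelled Ythdf2-vKO. These 15 counts in all left it below the filter for testing, so 9 of the 10 members were tested. A count of 3 or fewer is treated here as the floor, and 1 library of each group lay under it, so no fold is given.

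The make-up of the ligand transcripts differed between the groups through Tgfb1. On the scale of CPM per kilobase of exon, which allows levels of different genes to be compared, Tgfb1 made up 29.7% and 33.6% of the summed ligand level in the controls against 42.7% and 49.0% in the libraries labelled Ythdf2-vKO. Tgfb3 made up 70.1% and 65.6% in the controls against 56.4% and 50.7% in the libraries labelled Ythdf2-vKO, and Tgfb2 stayed under 1% in each library, at most 0.897%. The level of Tgfb3 over that of Tgfb1 was 2.36 and 1.96 in the controls against 1.32 and 1.03 in the libraries labelled Ythdf2-vKO.

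**Figure D2:**
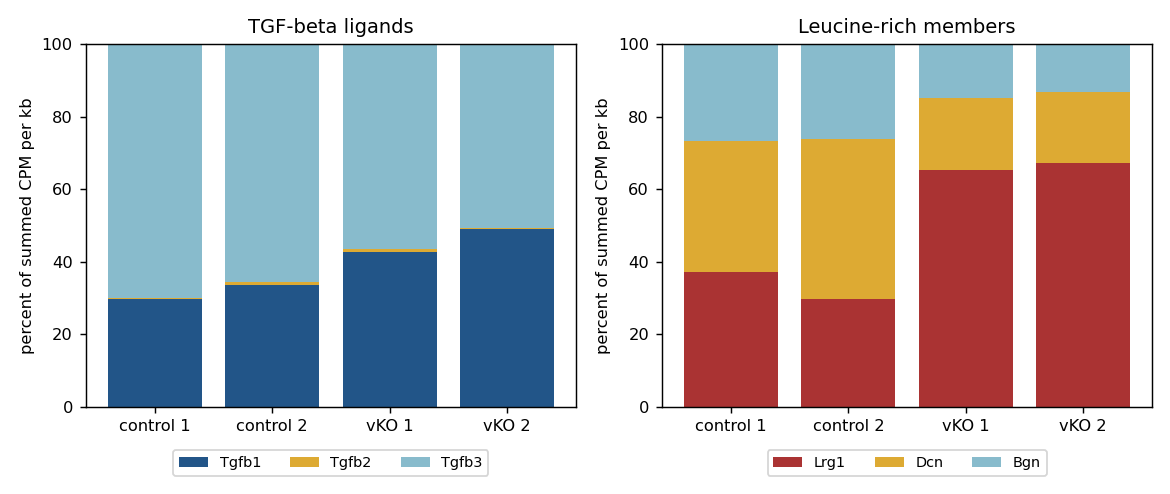
Percent of the summed level (CPM per kilobase of exon) taken by each ligand (left) and each leucine-rich member (right) in each library. Tgfb1 took 29.7% and 33.6% of the ligand level in the controls against 42.7% and 49.0% in the libraries labelled Ythdf2-vKO, and Lrg1 took 37.1% and 29.7% of the leucine-rich level in the controls against 65.3% and 67.3% in the libraries labelled Ythdf2-vKO.

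The signalling receptors were found at unequal levels. Tgfbr1 (chromosome 4, 47353222 to 47414931), the type I receptor, had 46.5 and 51.2 CPM in the controls against 49.2 and 46.6 CPM in those labelled Ythdf2-vKO. Its groups overlapped, with a log2 fold change of -0.03 (SE 0.13), and it was the member with the smallest spread between control libraries after Tgfb1 and Tgfbr3, at a ratio of 1.10. This small value turned positive under the GC offset (0.054) and when only library totals were used for scaling (0.034).

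Tgfbr2 (chromosome 9, 116084293 to 116175360), the type II receptor that binds the ligand, had 1.71 and 2.97 CPM in the controls against 3.25 and 2.78 CPM in those labelled Ythdf2-vKO. The groups overlapped, and the log2 fold change was 0.35 (SE 0.32). Per kilobase, Tgfbr1 stood 34.1 times above Tgfbr2 in control replicate 1 and between 19.0 and 21.6 times above it in the other 3 libraries.

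Acvrl1 (chromosome 15, 101128522 to 101145336), the endothelial type I receptor also called ALK1, had 25 and 65 counts in the controls against 71 and 70 in the libraries labelled Ythdf2-vKO, or 1.07 and 2.17 CPM against 2.65 and 2.59 CPM. The groups did not overlap, and the log2 fold change was 0.68 (SE 0.36). Control replicate 1 was again the lowest library: without it the log2 fold change was 0.27, and without control replicate 2 it was 1.29. Gm16031 overlaps Acvrl1 on the other strand.

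Tgfbr3 (chromosome 5, 107106570 to 107289629), the co-receptor betaglycan that presents ligand and also binds inhibin, had 14.3 and 15.5 CPM in the controls against 18.5 and 16.6 CPM in those labelled Ythdf2-vKO. The groups did not overlap, but the log2 fold change was only 0.24 (SE 0.16). Gm43422, Gm43423 and Gm42900 overlap Tgfbr3 on the same strand, and Gm43422 shares 297 exon bases with it, which strand cannot resolve. Of the 9 members tested, 4 had higher values in both libraries labelled Ythdf2-vKO than in either control and 0 had lower ones. Among all genes tested 22.7% were higher in this way and 45.3% did not overlap in either direction.

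**Figure D3:**
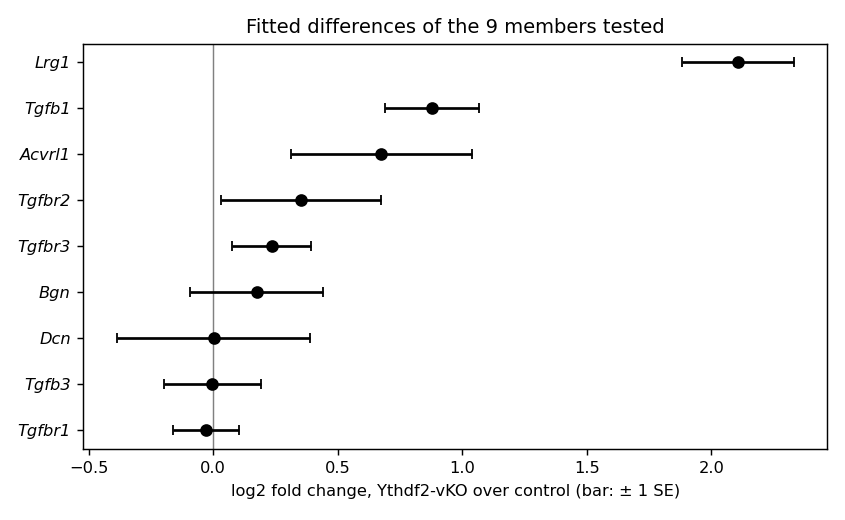
Fitted log2 fold change of each tested member, libraries labelled Ythdf2-vKO over control, with bars of 1 standard error on each side. Lrg1 at 2.11 stands apart from the rest, Tgfb1 follows at 0.88, and the bars of Bgn, Dcn, Tgfb3 and Tgfbr1 cross 0.

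The order of levels among members was examined next. By mean CPM per kilobase of exon over the 4 libraries of both groups (SD, n = 4), Tgfbr1 was highest at 7.41 ± 0.349, followed by Lrg1 at 6.91 ± 5.07, Dcn at 3.33 ± 1.11, Tgfb3 at 2.67 ± 0.263, Tgfbr3 at 2.48 ± 0.273, Bgn at 2.25 ± 0.608 and Tgfb1 at 1.76 ± 0.608. Acvrl1 at 0.497 ± 0.172, Tgfbr2 at 0.327 ± 0.0821 and Tgfb2 at 0.0235 ± 0.017 came last. The ranges of neighbours overlapped from Tgfbr1 down to Tgfb1 and between Acvrl1 and Tgfbr2. They did not overlap between Tgfb1 and Acvrl1 or between Tgfbr2 and Tgfb2. The median over all tested genes was 3.13 CPM per kilobase, and Tgfbr1 lay above 67.4% and Tgfbr2 above 11.3% of them.

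Lrg1 changed its place in this order between libraries. It stood at 2.07 and 3.10 CPM per kilobase in control, below Tgfbr1 at 7.12 and 7.84, and at 12.2 and 10.3 in the libraries labelled Ythdf2-vKO, above Tgfbr1 at 7.54 and 7.13. Levels per length depend on the length used. With the longest transcript in place of all exons, an alternative chosen after seeing the data, Bgn went from 2.25 to 5.15 CPM per kilobase and to the third place, because its exons cover 6099 bases and its longest transcript 2666. Tgfb1 then stood above Tgfb3, at 3.44 against 2.67, so the order of those ligands, and their shares, rest on the length used.

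**Figure D4:**
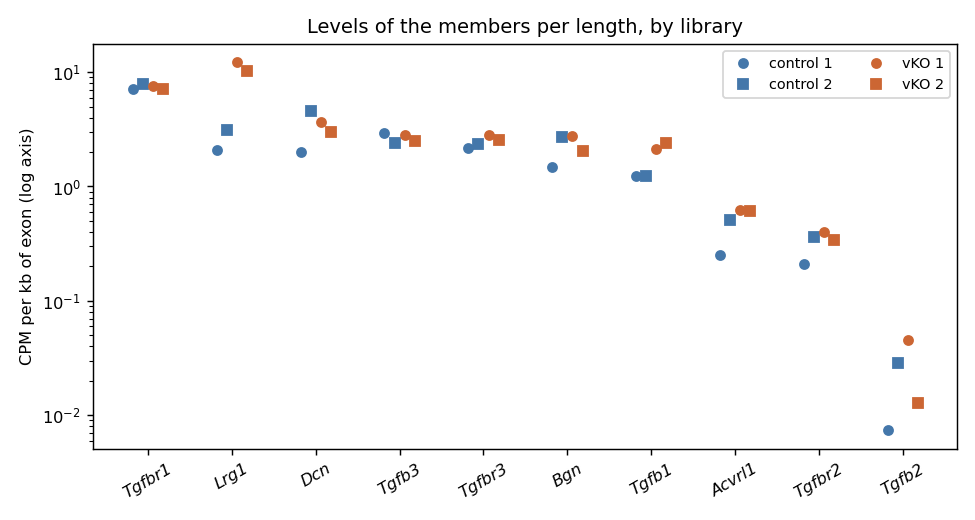
Level of each member in CPM per kilobase of exon on a log axis, 1 point for each library, with genes ordered by their mean. Tgfbr1 stays between 7.12 and 7.84 in the 4 libraries, whereas Lrg1 runs from 2.07 to 12.2, and Tgfb2 lies under 0.0452.

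Sequence features of the transcripts varied among members. GGACT, a frequent form of the m6A consensus, occurred 2.13 times per kilobase in the longest Lrg1 transcript of 1408 bases, more than in 89.9% of tested genes, against a median of 1.02. Dcn had 1.49 per kilobase, Tgfbr2 1.24, Tgfb3 1.18 and Tgfb1 1.17, and Tgfbr1 had the fewest at 0.521. GC content ran from 37.4% in Dcn to 63.0% in Lrg1, around a median of 48.9% for all tested genes. A match to these letters does not show that a transcript is methylated or bound.

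The rest of the pathway was read from 5 lists of 76 further genes, of which 69 were tested. With Benjamini-Hochberg adjustment over all genes, edgeR called 0 of the 69 at an adjusted p under 0.05. Of the 21132 genes tested, 83 or 0.393% were called, 59 (0.279%) higher and 24 (0.114%) lower in the libraries labelled Ythdf2-vKO. Before adjustment, 16 of the 69 with a positive and 1 with a negative log2 fold change had an edgeR p under 0.05. Over all 21132 tested genes these counts were 1616 and 1368, or 14.1% in either direction. A DESeq2 Wald test also called 0. The median log2 fold change of the 69 was 0.23, with 51 positive, beside 0.003 and 10632 positive for the 21132 genes tested.

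Of the genes that hold ligand latent or release it, all 12 tested had positive log2 fold changes, although Ltbp2 was negative with the GC offset (-0.15), and the median was 0.40, with 0 called and 5 at an unadjusted p under 0.05. The highest at a mean of at least 1 CPM was Emilin1, a matrix glycoprotein that restrains TGF-beta processing, at 2.50 ± 0.57 CPM in the controls against 3.93 ± 0.163 CPM in those labelled Ythdf2-vKO (log2 fold change 0.64, SE 0.28, edgeR adjusted p 0.32). The lowest was Ltbp2, a latent TGF-beta binding protein family member, at 3.54 ± 1.92 and 3.73 ± 1.65 CPM (0.06, SE 0.41, adjusted p 0.972).

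Of the other receptors and co-receptors, 9 of 11 tested had positive values with a median of 0.17, and 0 were called. Eng, which encodes endoglin, the accessory receptor through which Lrg1 is known to act, had 39 and 72 counts in the controls against 85 and 97 in the libraries labelled Ythdf2-vKO, or 2.04 ± 0.518 against 3.39 ± 0.297 CPM. Its log2 fold change was 0.72 (SE 0.30, edgeR adjusted p 0.301), the highest of the list among genes with at least 1 CPM on average. Cd109, a membrane co-receptor that dampens TGF-beta signalling, was lowest at 38.6 ± 1.69 and 36.7 ± 6.94 CPM (-0.07, SE 0.15, adjusted p 0.894). Vasn, named after its values were seen because its product is a leucine-rich protein that traps TGF-beta, had 225 and 315 counts in the controls against 458 and 390 in the libraries labelled Ythdf2-vKO (0.65, adjusted p 0.134).

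SMAD proteins and their regulators had a median of 0.20, with 13 of 20 positive and 0 called. Smad3, a mediator phosphorylated by Tgfbr1, was highest at 6.25 ± 0.788 and 8.95 ± 1.5 CPM (0.52, SE 0.21, edgeR adjusted p 0.294). Smad9, which acts in the bone morphogenetic protein branch, was lowest at 1.62 ± 0.0713 and 1.23 ± 0.204 CPM (-0.40, SE 0.38, adjusted p 0.701).

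Among 17 genes known to respond to TGF-beta, 13 had positive values, the median was 0.37 and 0 were called. Timp1, an inhibitor of matrix metalloproteinases, had 2 and 31 counts in the controls against 84 and 99 in the libraries labelled Ythdf2-vKO, a log2 fold change of 2.51 (SE 0.64, edgeR adjusted p 0.149). Its 2 controls lay far apart, and without control replicate 1 and without control replicate 2 the log2 fold change was 1.71 and 5.24. Postn, which encodes periostin, a matrix protein, was lowest at 4.48 ± 1.02 and 3.09 ± 0.246 CPM (-0.54, SE 0.26, adjusted p 0.382).

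The other small leucine-rich proteoglycans, relatives of decorin and biglycan, had 4 of 9 positive values and a median of -0.18, with 0 called. Among those with at least 1 CPM, Nyx (nyctalopin) was highest, at 3.47 ± 0.0512 and 6.31 ± 0.166 CPM (0.86, SE 0.23, edgeR adjusted p 0.127). Epyc (epiphycan) was lowest, at 28.0 ± 0.63 and 19.6 ± 0.634 CPM (-0.52, SE 0.14, adjusted p 0.142). The median of this list was 0.35 without control replicate 2, 0.40 without replicate 2 of the libraries labelled Ythdf2-vKO, and 0.081 in the DESeq2 fit, so its sign changed with the libraries kept and with the filter, the last 3 being medians over 10, 11 and 11 genes.

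**Figure D5:**
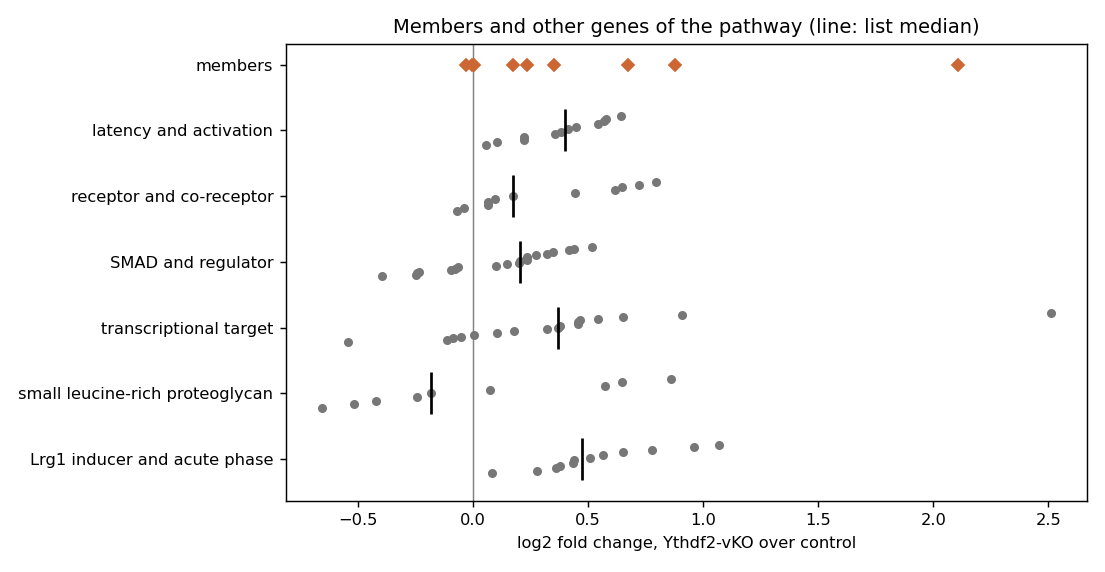
Log2 fold change, libraries labelled Ythdf2-vKO over control, of the tested members (orange) and of the tested genes of each list (grey), with a line at the median of each list. Medians run from -0.18 for the small leucine-rich proteoglycans to 0.47 for the genes of acute phase and Lrg1 induction, and Lrg1 at 2.11 and Timp1 at 2.51 lie to the right of all others.

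A list of 16 genes that induce Lrg1 in other tissues, or that respond beside it in the acute phase, was examined beside Lrg1. Il6, Tnf and Orm1 of this list had no row, so no level is given for them. Among the deposited genes the lowest sum of counts over the 4 libraries was 10. A gene without a row may thus have had fewer counts than that, or may not have been counted at all. Which of these holds was not tested. Saa3 was not tested, at 0 and 4 counts in the controls against 2 and 5 in the libraries labelled Ythdf2-vKO. Of the 12 tested, 12 had positive log2 fold changes, with a median of 0.47, 0 called and 5 at an unadjusted p under 0.05. Lcn2, which encodes the acute-phase protein lipocalin 2, was highest among genes with at least 1 CPM, with 1782 and 4120 counts in the controls against 6313 and 4865 in the libraries labelled Ythdf2-vKO (0.96, SE 0.29, edgeR adjusted p 0.245). Nfkbia, the inhibitor of NF-kappa-B, was lowest of those at 17.2 ± 1.63 and 20.8 ± 1.75 CPM (0.28, SE 0.16, adjusted p 0.465). Stat3, named after its values were seen because it is the transcription factor activated by interleukin-6, had 614 and 664 counts in the controls against 1081 and 959 in the libraries labelled Ythdf2-vKO (0.65, adjusted p 0.0878). The DESeq2 Wald test called Stat3, as did edgeR with library totals alone, with the replicate block, and with that block and the GC offset. Over all genes these fits called 217, 218, 1017 and 828, in turn, against 83 in the edgeR fit of genotype alone with TMM scaling. Stat3 was not called in that fit or with the GC offset alone. Il6st was called in both fits with the block. The Lcn2 log2 fold change was 0.59 without control replicate 1 and 1.45 without control replicate 2.

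Genes with a profile like that of Lrg1 were sought over the 4 libraries. The measure was the distance between centred log2(CPM + 0.5) profiles, over 14320 other protein-coding genes with a mean of at least 1 CPM. The nearest were Wnt4 at a distance of 0.131, Robo4 at 0.184, Serpina3n at 0.223, Tnfrsf12a at 0.27 and Kcnh3 at 0.303. Their fitted log2 fold changes, from 2.26 for Kcnh3 to 3.96 for Wnt4, were all larger than the 2.11 of Lrg1. The added 0.5 shrinks differences at low CPM, so nearness here does not mean an equal fold. Wnt4 had 1 and 6 counts in the controls against 60 and 52 in the libraries labelled Ythdf2-vKO, and Robo4 had 6 and 20 against 101 and 94. Serpina3n, a secreted serine protease inhibitor, had 17 and 30 counts in the controls against 166 and 130 in the libraries labelled Ythdf2-vKO. Tnfrsf12a, the receptor of the cytokine TWEAK, had 14 and 32 counts in the controls against 108 and 112 in the libraries labelled Ythdf2-vKO. Any profile near that of Lrg1 must separate the groups, so no test is given for these 5 genes.

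Markers of cell types that could hold the members were summed in each library. The 9 endothelial markers summed to 42.7 and 31.9 CPM in the controls against 54.5 and 47.1 CPM in those labelled Ythdf2-vKO. Of the 8 tested, 6 were positive, the median was 0.40 and 0 were called. Of the 9 neutrophil markers, a cell type that stores the Lrg1 protein, only Ltf and Csf3r had a row, and they summed to 1.07 and 1.23 CPM in the controls against 1.57 and 1.07 CPM in those labelled Ythdf2-vKO. As for Il6, a marker without a row may have had few counts or may not have been counted.

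Other somatic and germ cell markers were summed in the same way. The 11 Sertoli markers summed to 845 and 901 CPM in the controls against 1200 and 1050 CPM in those labelled Ythdf2-vKO, with a median of 0.44, and the 8 Leydig markers to 284 and 340 against 473 and 350 CPM. Wt1, a Sertoli transcription factor, was the only marker called in the edgeR fit of genotype alone with TMM scaling (32.0 ± 1.1 against 52.5 ± 2.45 CPM, log2 fold change 0.71, edgeR adjusted p 0.0418). The DESeq2 Wald test, edgeR with library totals alone and edgeR with the replicate block each also called Cldn11 of the Sertoli list, Nr5a1 of the Leydig list and Pdgfra of the fibroblast list. The block added Amh, Insl3 and Flt1, and the GC offset alone added Pdgfra. With the offset and block together, Id4 of the spermatogonial list was called beside Wt1, Cldn11, Nr5a1 and Pdgfra. Each of these other fits called more genes over all than the 83 of genotype alone with TMM scaling, from 147 with the GC offset to 1017 with the replicate block. Marker calls in the fits that left out 1 library are not listed. The 8 macrophage markers summed to 54.5 and 84.8 CPM in the controls against 80.0 and 66.7 CPM in those labelled Ythdf2-vKO, and the 7 peritubular myoid markers to 139 and 175 against 196 and 157 CPM. Among germ cells, the 9 spermatogonial markers summed to 136 and 134 against 170 and 150 CPM, and the 8 elongating spermatid markers to 10900 and 9170 against 8380 and 8640 CPM. Of these 8, 0 had positive log2 fold changes, with a median of -0.269 and 4 lower at an unadjusted edgeR p under 0.05. That median ran from -0.402 without control replicate 2 to -0.156 without control replicate 1. The 8 spermatocyte markers summed to 1470 and 1550 against 1500 and 1390 CPM, and the 7 round spermatid markers to 1380 and 1370 against 1370 and 1450 CPM. Log2 fold changes were positive for all 11 Sertoli, 8 Leydig (median 0.41) and 9 spermatogonial markers (median 0.32). They were positive for 6 of 8 macrophage, 4 of 7 myoid, 4 of 7 round spermatid and 1 of 8 spermatocyte markers. The macrophage, myoid, spermatocyte and round spermatid sums overlapped between the groups. No marker of these lists was at 0 counts in any library. The part of cell composition in the values of Lrg1 and Tgfb1 was not tested.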

How the data were processed

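Raw read counts per gene for 4 libraries were taken as the authors deposited them, with columns mapped by the sample titles. The submitters' processing notes name HISAT2 2.1.0 and HTSeq 0.6.1p1. Genome build, annotation and use of strand are not given in the sources used here. Per the file headers the table also holds the authors' mean normalized count (a signal), log2 fold change, its standard error and Wald statistic (scores), p-value and adjusted p-value.

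Counts were tested with edgeR 4.0.16 in R 4.3.3: TMM scaling, filterByExpr (21132 genes left), a robust quasi-likelihood fit of genotype, two-sided, adjusted by Benjamini-Hochberg over all genes tested, called under 0.05. The standard error is the absolute log2 fold change over the square root of F. Coordinates and lengths are from GENCODE M21 (GRCm38), in which 25241 of 25265 identifiers were found. In simulated counts for 21132 genes, 88% of 2-fold and 100% of 4-fold changes were recovered, and 7 of 195 calls were false. The changed genes were drawn only from the more highly expressed ones, and all genes were given the same variation between replicates. Recovery at low counts, as for Acvrl1, Tgfbr2 or Timp1, and under the uneven spread of the real libraries was therefore not measured.

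Replicates within a group were not duplicates: the chi-square of counts between them was 19.4 per degree of freedom for the controls and 7.84 for the other group. Libraries of different groups were not compared in this way. Named were the members, Ythdf2, list genes called, the highest and lowest of each list with at least 1 CPM, and the 5 genes most like Lrg1. Members and lists were chosen with earlier results of these data known. Alternatives were DESeq2 1.42.0 (Wald test and size factors), library totals, 2 filters, no robust estimation, a prior count of 2 in place of 0.125, a GC offset, a replicate block and leaving out each library. Intervals of counting error are not given, since reads carry no molecular identifiers and n = 2.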

Additional observations from a re-analysis of the deposited data

How the results depend on the processing

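The Lrg1 log2 fold change moved by less than the spread between replicates under each alternative but 1, and lay between 1.85 and 2.44 when 1 library was left out. Such fits leave a lone library in a group and assume that it varies like the others. Over all genes, 83 calls (59 higher, 24 lower) became 217 with a DESeq2 Wald test (137 and 80), 147 under the GC offset (85 and 62), 218 with library totals alone (181 and 37), and 35 to 1512 without 1 library. Library totals alone moved the median of all genes from 0.003 to 0.067.

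Both groups carry the numbers 1 and 2, which no label ties to a shared animal or batch. Deviations of same-numbered libraries correlated at 0.108 across genes, over 2 pairs, so they were not taken as paired. With the replicate block 1017 genes were called (627 higher, 390 lower), and 828 when that block was joined to the GC offset (400 and 428). A block on these numbers also leaves less of the 4 libraries from which to estimate the spread.

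The count of pathway genes called went from 0 to 6 of 69 with the replicate block (Epyc, Furin, Nyx, Tgfbi, Timp1 and Vasn). That fit called 1017 of all 21132 genes. With a GC offset added to the block the count was 1 of 69 (Timp1), beside 828 of 21132. It also rose in the fits without either control replicate, as did the count over all genes. Ltbp2 was negative under the GC offset (-0.153), also with the block added (-0.092). With 1 library left out it ran from -0.482, without replicate 1 of the libraries labelled Ythdf2-vKO, to 0.77, without control replicate 2, and was -0.404 without control replicate 1. Cd109 ran from -0.275 to 0.11, without replicates 1 and 2, in turn, of the libraries labelled Ythdf2-vKO. Wt1 was no longer called without robust estimation (edgeR adjusted p 0.0501) or without replicate 1 (0.338) or replicate 2 (0.0824) of the libraries labelled Ythdf2-vKO. The cause was not tested. Low counts limit Tgfb2, Acvrl1 and Tgfbr2 most.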
